A study of Mus musculus with 9 samples.

Results

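The genes described here are the collagen chains of mouse liver other than those of collagen VI. They were chosen by symbol alone, as genes named Col, a type number, the letter a and a chain number, and 35 of the 17305 genes in the expression table met this rule. By class, 10 encode fibrillar chains, 9 encode chains found in basement membranes and 16 belong to the other collagens. Liver RNA of 9 male Balb/c mice was sequenced, in 3 groups of 3 mice. All mice were 8 weeks old per the labels and were given CCl4, a toxin that injures hepatocytes, over 8 weeks, and all had an AAV8 virus injected into the tail vein, which the labels place 4 weeks into the CCl4 course. The study's methods give an earlier day for the virus. The NC + CCl4 mice received a control virus, while the viruses of the lnc-Helf-sh1# + CCl4 mice and of the lnc-Helf-sh2# + CCl4 mice carried an shRNA (shRNA1# or shRNA2#) against the long noncoding RNA lnc-Helf. The question was how the knockdown of lnc-Helf changed the collagen genes of CCl4-injured liver. The sources used here do not say which liver cells took up the virus, and they name no promoter that limits the shRNA to a cell type. By the paper's account, lnc-Helf was expressed mainly by hepatic stellate cells and next by liver macrophages. Livers without CCl4 were not analysed here.

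Collagens are built from chains that wind around each other in a triple helix. Fibrillar collagens such as I, III and V form the rope-like fibres of scar tissue, and in injured liver they come mainly from activated hepatic stellate cells and portal fibroblasts. Collagen IV forms the sheet of the basement membrane, and collagens XV and XVIII sit beside it and carry sugar chains. The remaining collagens decorate fibrils, span membranes or form short networks.

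Libraries held 14265875 to 16816431 expected counts in total, and scaling factors (trimmed mean of M values, TMM) ran from 0.882 to 1.07. The table gives 1 value for each gene, so lnc-Helf was not analysed apart from its host gene. Fmo2, that gene, was at 227, 202 and 265 CPM in the NC + CCl4 livers, at 109, 122 and 104 CPM with shRNA1# and at 174, 141 and 88.2 CPM with shRNA2#. CPM here is the count relative to the TMM-scaled library size, on the usual counts-per-million scale. Col1a1 and Col1a2, the chains of collagen I that mark matrix-producing cells, were detected in all 9 livers. The read counts of all 35 chains were whole numbers in every library (tolerance 1e-06), so the authors' estimation left no fractional reads in them. After the filter on low counts 24 of the 35 chains remained for testing. The other 11 had between 1 and 68 reads over all libraries together and at most 12 in any library, and they are given no fold change. They were Col11a1 among the fibrillar chains, Col7a1 and Col4a6 among the basement membrane chains, and Col9a2, Col9a3, Col10a1, Col17a1, Col19a1, Col22a1, Col23a1 and Col28a1 among the others.

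Most tested chains had lower values in the shRNA livers, but no chain passed an adjusted p of 0.05 in edgeR's quasi-likelihood test. With shRNA1#, 23 of 24 chains had a negative log2 fold change, and their median was -0.36 against 0.02 over all 13059 genes tested, of which 47.1% were negative. With shRNA2#, 19 of 24 were negative, and the median was -0.41 against 0.005 over all genes, of which 49.5% were negative. That median was -0.25 when NC + CCl4 replicate 3 was left out, and -0.58 when replicate 1 of lnc-Helf-sh2# + CCl4 was. The comparisons share the same 3 control livers, and in whole liver fewer cells of a type and less RNA per cell cannot be told apart. These counts cover only the chains that passed the filter. In the shRNA1# comparison 0 of 24 chains were called, as were 0% of all genes. In the shRNA2# comparison 0 of 24 were called, against 8.60% of all genes, and with both shRNA groups pooled in the contrast 0 of 24 were called, against 5.90% of all genes. Without adjustment for multiple tests, 4 chains were lower with shRNA1# at p under 0.05 (9.95% of all genes), 5 with shRNA2# (14.9% of all genes) and 8 with both groups together (15.0% of all genes), and none was higher. DESeq2 called 0 of 21 chains with shRNA1# (2.88% of all genes with an adjusted p). It called Col16a1 and Col24a1 lower among 21 with shRNA2# (lower calls made up 7.56% of all genes). It called Col5a2, Col16a1, Col24a1 and Col8a2 lower among 27 with both groups together (lower calls made up 7.02%). Between the 2 shRNA groups 0 of 24 chains were called by edgeR (0% of all genes, lowest adjusted p of a chain 0.464), 1 chain had an unadjusted p under 0.05 (10.5% of all genes), and DESeq2 called 0 of 12 (0.914% of all genes).

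**Figure D1:**
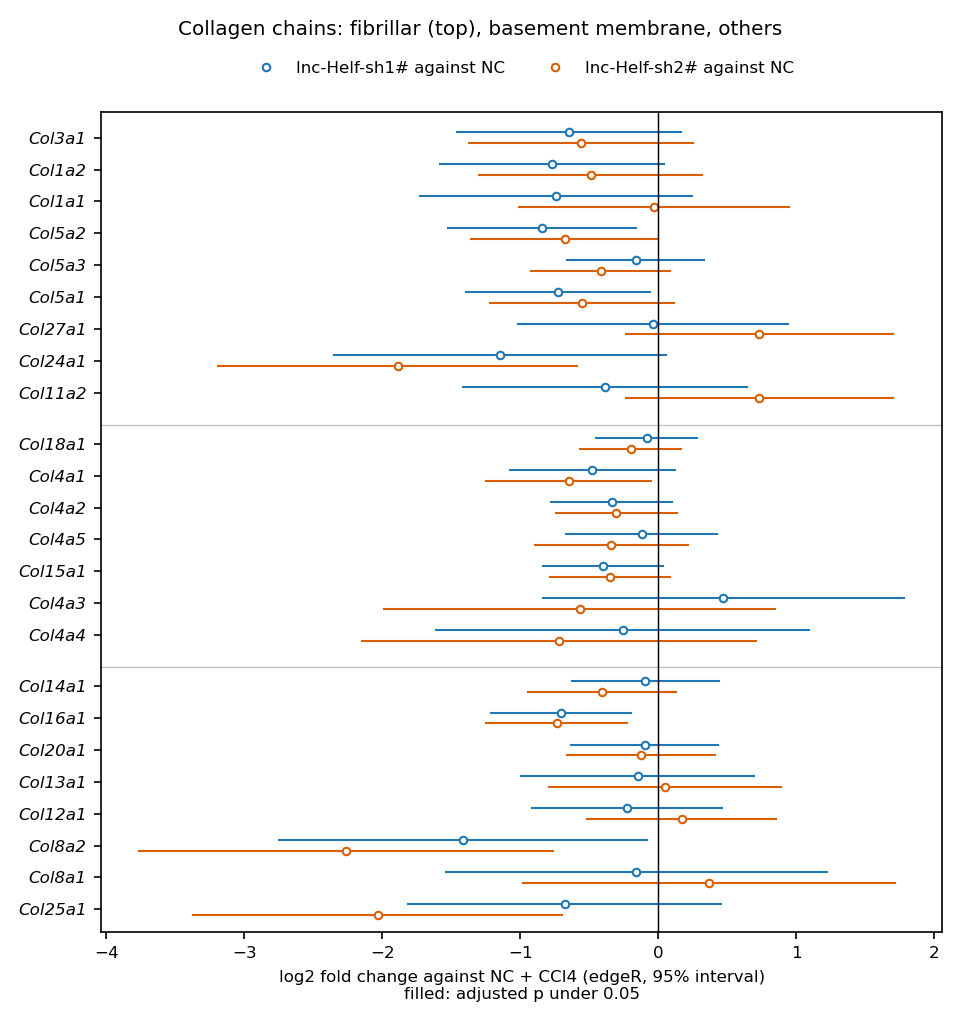
The log2 fold change against NC + CCl4 (horizontal axis) is drawn for each of the 24 tested chains, with shRNA1# in blue, shRNA2# in orange and lines for the 95% interval of edgeR's fit. All points are open because no adjusted p was under 0.05, and most lie left of 0, with Col27a1 and Col11a2 at 0.73 with shRNA2# the farthest to the right.

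On the TPM scale, which corrects for transcript length, the collagen mRNA of the CCl4-treated control livers was led by a basement membrane chain and not by collagen I. Col18a1 (gene number 12822), whose collagen XVIII is made in liver by hepatocytes as well as by vessels, was at 255, 264 and 269 TPM in the 3 NC + CCl4 livers and held on average 41.9% of the summed TPM of the 35 chains. Col3a1 followed with a mean of 123.6 ± 44.7 TPM (SD, n = 3), Col1a2 with 74.3 ± 27.3, Col1a1 with 49.9 ± 19.4 and Col4a1 with 38.1 ± 1.02 TPM. Collagens I and III together made up 38.2% of the summed TPM. Col18a1 was above Col3a1 in every control liver, and the levels of Col3a1, Col1a2, Col1a1 and Col4a1 overlapped from each to the next. Col14a1, Col4a2 and Col5a2 came next, with means of 19.8, 19.0 and 12.8 TPM and overlapping values. Col5a3, Col4a5, Col5a1, Col15a1, Col16a1 and Col27a1 followed with means of 7.59 to 3.24 TPM, again overlapping between neighbours. Col20a1 and Col13a1 overlapped at 1.75 and 1.65 TPM, and the remaining 19 chains averaged under 1 TPM.

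The fibrillar chains, summed in TPM, amounted to 225, 221 and 386 in the NC + CCl4 livers, to 181, 186 and 96.5 with shRNA1# and to 268, 159 and 115 with shRNA2#. All shRNA1# livers lay below all controls in this sum, and the shRNA2# livers overlapped the controls through replicate 1. The basement membrane chains summed to 319, 331 and 340.5 TPM in the NC + CCl4 livers, to 238, 255 and 321 TPM with shRNA1# and to 252, 214 and 259 TPM with shRNA2#. The fibrillar share of all collagen TPM ran from 22.0 to 51.0% over the 9 livers and the basement membrane share from 45.0 to 73.1%. Col18a1 alone held 60.1% in lnc-Helf-sh1# + CCl4 replicate 3 and 58.1% in lnc-Helf-sh2# + CCl4 replicate 3, the livers in which the CPM of Col1a1 was lowest.

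**Figure D2:**
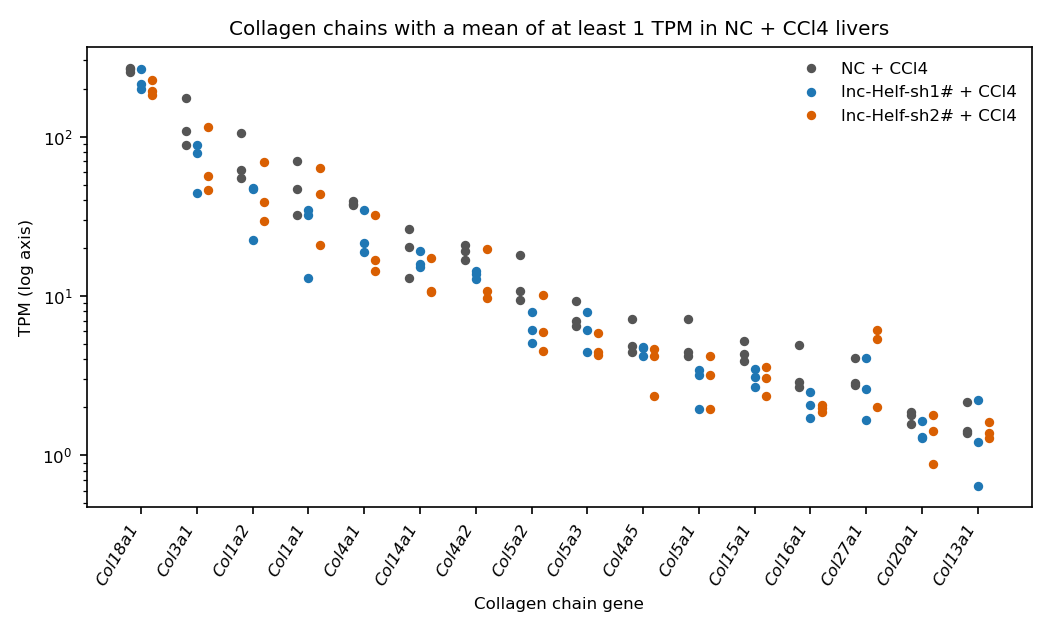
TPM of the 16 chains with a mean of at least 1 TPM in the NC + CCl4 livers, on a log axis, with a point for each of the 9 livers. Col18a1 stands above all other chains in every liver. Among the controls the fibrillar chains Col3a1, Col1a2 and Col1a1 spread more widely than Col4a1. In the shRNA groups Col4a1 spread widely too (18.9 to 34.6 TPM with shRNA1#, 14.4 to 32.4 TPM with shRNA2#).

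Among the fibrillar chains, collagens I and III had lower means with shRNA1#, and none of their 3 chains passed edgeR's test. Col1a2 (gene number 12843), the second chain of collagen I, was at 186, 159.9 and 300.3 CPM in the NC + CCl4 livers, at 157, 152 and 69.7 CPM with shRNA1# and at 219, 133 and 108 CPM with shRNA2#. All shRNA1# livers lay below the lowest control, 157 against 159.9 CPM at the closest, and the shRNA2# livers overlapped the controls. For Col1a2 the change was -0.77 on the log2 scale with shRNA1# (95% interval -1.58 to 0.04, adjusted p = 0.300 in edgeR) and -0.49 with shRNA2# (95% interval -1.30 to 0.32, adjusted p = 0.381). Col1a1 (12842), the major chain of collagen I, was at 159.6, 106 and 229 CPM in the controls, at 131, 119.6 and 45.9 CPM with shRNA1# and at 229, 169 and 87.2 CPM with shRNA2#. Both shRNA groups overlapped the controls. The log2 fold change of Col1a1 was -0.74 with shRNA1# (95% interval -1.73 to 0.24, adjusted p = 0.394 in edgeR) and -0.03 with shRNA2# (95% interval -1.01 to 0.95, adjusted p = 0.972), and the latter turned positive without NC + CCl4 replicate 3 (0.28). It also turned without replicate 3 of shRNA2# (0.25). Col3a1 (12825), the chain of collagen III, was at 284, 334 and 528 CPM in the controls, at 277, 307 and 147 CPM with shRNA1# and at 391, 207 and 179 CPM with shRNA2#. Here too both groups overlapped the controls. Its log2 fold changes were -0.65 (95% interval -1.46 to 0.16, adjusted p = 0.369 in edgeR) and -0.56 (95% interval -1.37 to 0.25, adjusted p = 0.317).

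Collagen V, which sets the diameter of collagen I fibrils, had lower means for its Col5a1 and Col5a2 chains with each shRNA. Col5a2 (gene number 12832) was at 40.9, 35.0 and 65.8 CPM in the NC + CCl4 livers, at 25.6, 33.1 and 20.1 CPM with shRNA1# and at 41.2, 19.7 and 27.6 CPM with shRNA2#. With shRNA1# no liver reached the control range, and with shRNA2# only replicate 1 did. Col5a2 had log2 fold changes of -0.85 with shRNA1# (95% interval -1.53 to -0.16, adjusted p = 0.207 in edgeR), -0.68 with shRNA2# (95% interval -1.36 to 0.00, adjusted p = 0.161) and -0.76 with both groups together (adjusted p = 0.089 in edgeR, 0.0405 in DESeq2). Without lnc-Helf-sh2# + CCl4 replicate 1 the last value was -0.94 and passed edgeR's test (adjusted p = 0.0361), whereas without NC + CCl4 replicate 3 it was -0.445 (adjusted p = 0.370). Col5a1 (12831) was at 20.02, 20.3 and 32.7 CPM in the controls, at 18.1, 16.7 and 9.56 CPM with shRNA1# and at 21.3, 17.3 and 11.2 CPM with shRNA2#. The shRNA1# livers again lay below all controls and the shRNA2# livers did not. The log2 fold changes of Col5a1 were -0.72 (95% interval -1.39 to -0.06, adjusted p = 0.246 in edgeR) and -0.55 (95% interval -1.22 to 0.11, adjusted p = 0.233). Col5a3 (53867), a less common collagen V chain, was at 32.8, 23.5 and 21.7 CPM in the controls, at 23.6, 17.03 and 29.0 CPM with shRNA1# and at 16.0, 23.3 and 19.1 CPM with shRNA2#. It overlapped in both comparisons, with log2 fold changes of -0.16 (adjusted p = 0.722 in edgeR) and -0.42 (adjusted p = 0.232).

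The 5 chains Col1a1, Col1a2, Col3a1, Col5a1 and Col5a2 shared their extremes. NC + CCl4 replicate 3 was the highest of the 9 livers for all 5, and lnc-Helf-sh1# + CCl4 replicate 3 was the lowest for 4 of them, Col5a2 being lowest in lnc-Helf-sh2# + CCl4 replicate 2. Col5a3 did not share this pattern, since it was highest in NC + CCl4 replicate 1 and lowest in lnc-Helf-sh2# + CCl4 replicate 1. Among the remaining fibrillar chains, Col24a1 (gene number 71355) was at 1.35, 0.672 and 2.80 CPM in the NC + CCl4 livers, at 0.627, 0.987 and 0.552 CPM with shRNA1# and at 0.277, 0.322 and 0.693 CPM with shRNA2#. Its counts were low, 138 reads over all 9 libraries, and both groups overlapped the controls. For Col24a1 the log2 fold change was -1.89 with shRNA2# (95% interval -3.19 to -0.59, adjusted p = 0.0665 in edgeR, 0.0348 in DESeq2) and -1.15 with shRNA1# (adjusted p = 0.298 in edgeR). With both groups together it was -1.52 (adjusted p = 0.0695 in edgeR, 0.0454 in DESeq2), and -1.88 without NC + CCl4 replicate 2 (adjusted p = 0.0499 in edgeR). Without NC + CCl4 replicate 3 it was -0.85 (adjusted p = 0.336 in edgeR). Col27a1 (373864), a fibrillar chain best known from cartilage and named here after its values were seen, went the other way with shRNA2#. It was at 11.9, 17.5 and 11.5 CPM in the controls, at 19.5, 12.7 and 7.72 CPM with shRNA1# and at 9.14, 27.2 and 31.6 CPM with shRNA2#. Replicates 2 and 3 of shRNA2# lay above all controls and replicate 1 below them, and the log2 fold change of 0.73 had a 95% interval of -0.24 to 1.70 (adjusted p = 0.274 in edgeR).

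**Figure D3:**
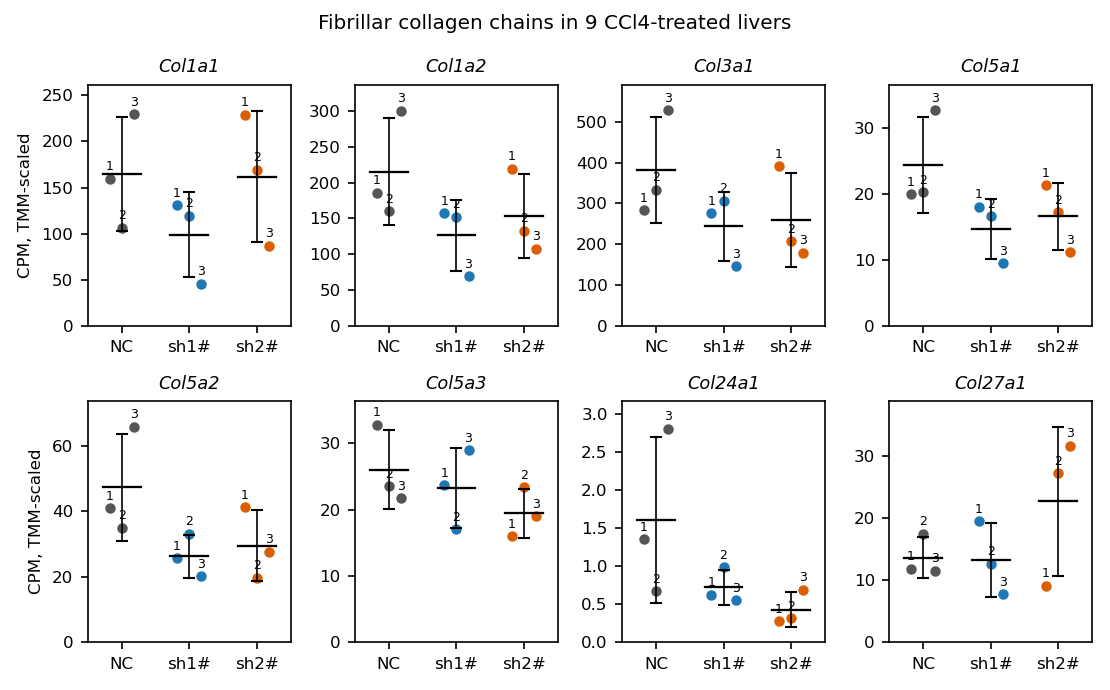
CPM of 8 fibrillar chains by group, with a numbered point for each liver, a bar for the mean and whiskers for the SD (n = 3). In Col1a1, Col1a2, Col3a1, Col5a1 and Col5a2 the highest of the 9 points is NC + CCl4 replicate 3, and lnc-Helf-sh2# + CCl4 replicate 1 stands within the control range.

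The stretch before the transcription start is printed for Col1a2, Col3a1 and Col5a1, as 3 fibrillar chains whose highest and lowest livers were the same. Each is the 120 bases upstream of the start in RefSeq's GRCm38.p6 annotation, read 5′ to 3′ on the plus strand, and capitals mark matches to 3 motifs on either strand. The first motif searched was CCAAT, which many promoters carry upstream of the start. For the classical box near the start, the letters TATAAA were searched. The last, bound by Sp1-type factors in many housekeeping promoters, was the box GGGCGG.
Col1a2, chr6:4505498-4505617: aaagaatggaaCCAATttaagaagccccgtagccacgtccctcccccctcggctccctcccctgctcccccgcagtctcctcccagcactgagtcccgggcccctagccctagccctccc
Col3a1, chr1:45311418-45311537: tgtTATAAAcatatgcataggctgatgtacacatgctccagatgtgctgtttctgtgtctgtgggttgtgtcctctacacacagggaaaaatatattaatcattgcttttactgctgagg
Col5a1, chr2:27886305-27886424: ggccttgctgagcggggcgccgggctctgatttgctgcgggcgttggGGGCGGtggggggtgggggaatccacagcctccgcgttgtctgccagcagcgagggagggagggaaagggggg
The 3 stretches share none of these motifs, since Col1a2 holds only the first, Col3a1 only the second and Col5a1 only the last. Promoter windows of 300 bases, 250 before the start and 50 from it, were found for 28 of the 35 chains. The first motif occurred in 11 of the 28 (39.3%, against 41.1% of 27025 genes), the second in 5 (17.9%, against 15.7%) and the last in 18 (64.3%, against 38.2%). In these windows Col1a2 and Col5a1 both held the last motif, which the printed stretch of Col1a2 did not. None of the 3 motifs contains another. A match describes letters and not a binding site.

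Among the basement membrane chains, Col4a1 and Col4a2 were lower in most shRNA livers, and the abundant Col18a1 overlapped the controls in CPM. Col4a1 (gene number 12826), which forms the main collagen IV network together with Col4a2, was at 144, 145 and 136 CPM in the NC + CCl4 livers, at 79.2, 88.9 and 137 CPM with shRNA1# and at 131, 72.8 and 67.1 CPM with shRNA2#. In each shRNA group 2 livers were far below the controls, while replicate 3 of shRNA1# was among the controls and replicate 1 of shRNA2# just under them. The log2 fold change of Col4a1 was -0.48 with shRNA1# (95% interval -1.07 to 0.12, adjusted p = 0.369 in edgeR) and -0.65 with shRNA2# (95% interval -1.24 to -0.05, adjusted p = 0.136). Col4a2 (12827) was at 62.9, 68.7 and 73.8 CPM in the controls, at 52.2, 55.2 and 55.1 CPM with shRNA1# and at 77.4, 45.3 and 43.7 CPM with shRNA2#. All shRNA1# livers lay below all controls, and replicate 1 of shRNA2# was the highest of the 9 livers. The log2 fold changes of Col4a2 were -0.34 (95% interval -0.78 to 0.10, adjusted p = 0.382 in edgeR) and -0.30 (95% interval -0.74 to 0.13, adjusted p = 0.313). Without lnc-Helf-sh2# + CCl4 replicate 1 both chains passed edgeR's test in the shRNA2# comparison, Col4a1 with -1.04 (adjusted p = 0.0215) and Col4a2 with -0.64 (adjusted p = 0.0156).

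Col4a1 and Col4a2 are annotated head to head on chromosome 8. In the RefSeq GRCm38.p6 promoter sequences, their starts are the ends of a stretch of 22 bases. The stretch is shown because both genes begin in it, Col4a2 at its first base on the plus strand and Col4a1 at its last base on the minus strand, and capitals mark GGGCGG.
Col4a2 start to Col4a1 start, chr8:11312805-11312826, plus strand: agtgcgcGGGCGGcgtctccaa
The annotated genes overlap at their starts, as do Col4a3 and Col4a4. No source used here says that reads were counted by strand, so reads lying within the overlaps cannot be told apart by strand. The read counts of Col4a1, Col4a2, Col4a3 and Col4a4 were whole in every library, so they show no reads split between chains. Col4a5 and Col4a6 are neighbours as well, and so are Col3a1 and Col5a2.

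Col18a1 was at 817.5, 837 and 839.8 CPM in the NC + CCl4 livers, at 700.1, 755 and 898 CPM with shRNA1# and at 652, 631 and 888 CPM with shRNA2#. The controls were close together, and replicate 3 of each shRNA group lay above all of them. For Col18a1 the log2 fold changes were -0.08 (95% interval -0.45 to 0.28, adjusted p = 0.815 in edgeR) and -0.20 (95% interval -0.57 to 0.17, adjusted p = 0.433). On the TPM scale, which TMM factors do not enter, Col18a1 was at 192.5, 181 and 227 with shRNA2# against 255, 264 and 269 in the controls. Its groups did not overlap there, so its place relative to the controls depended on the scaling. Col15a1 (12819), its relative in the vessel wall, was at 12.2, 10.7 and 14.2 CPM in the controls, at 9.59, 8.27 and 10.3 CPM with shRNA1# and at 9.28, 7.52 and 12.3 CPM with shRNA2#. It separated with shRNA1# and overlapped with shRNA2#, with log2 fold changes of -0.40 and -0.35 (adjusted p = 0.309 and 0.245 in edgeR). Col4a5 (12830), a chain of the collagen IV networks found in kidney and other specialised membranes, was at 16.6, 17.5 and 25.6 CPM in the controls, at 19.2, 19.5 and 16.2 CPM with shRNA1# and at 18.3, 9.84 and 19.1 CPM with shRNA2#. It overlapped in both comparisons (log2 fold changes -0.12 and -0.34, adjusted p = 0.825 and 0.375 in edgeR). Its partners were scarce. Col4a3 (12828) was at 1.58, 0.616 and 0.514 CPM in the controls, at 0.690, 0.679 and 2.39 CPM with shRNA1# and at 0.554, 0.772 and 0.485 CPM with shRNA2#. Col4a4 (12829) was at 0.470, 0.616 and 0.914 CPM in the controls, at 0.815, 0.247 and 0.613 CPM with shRNA1# and at 0.0693, 0.643 and 0.485 CPM with shRNA2#. These chains rested on 135 and 80 reads over the 9 libraries, and both overlapped in both comparisons. Neither passed edgeR's test (adjusted p = 0.694 and 0.565 for Col4a3 and 0.853 and 0.469 for Col4a4).

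Outside these classes, Col16a1 and Col8a2 were the chains, 2 of 24 tested, for which every shRNA liver of both groups lay below every control. Over all genes, 934 of the 13059 tested met the same condition. Col16a1 (gene number 107581) encodes a collagen that associates with fibrils and cell surfaces. It was at 6.93, 7.51 and 12.1 CPM in the NC + CCl4 livers, at 5.01, 6.29 and 4.96 CPM with shRNA1# and at 4.92, 5.34 and 5.68 CPM with shRNA2#. The 6 shRNA livers were close together, and the highest control was again replicate 3. On the log2 scale the change of Col16a1 was -0.71 with shRNA1# (95% interval -1.21 to -0.20, adjusted p = 0.188 in edgeR) and -0.73 with shRNA2# (95% interval -1.25 to -0.23, adjusted p = 0.0679 in edgeR, 0.0416 in DESeq2). With both groups together it was -0.72 (95% interval -1.15 to -0.29, adjusted p = 0.0532 in edgeR, 0.0205 in DESeq2), and -0.425 without NC + CCl4 replicate 3 (adjusted p = 0.218 in edgeR). Col8a2 (329941), a short-chain collagen best known from the cornea, was at 0.587, 0.616 and 1.14 CPM in the controls, at 0.376, 0.185 and 0.306 CPM with shRNA1# and at 0.208, 0.257 and 0 CPM with shRNA2#. It rested on 62 reads in all. For Col8a2 the log2 fold change was -1.41 with shRNA1# (95% interval -2.75 to -0.08, adjusted p = 0.256 in edgeR), -2.26 with shRNA2# (95% interval -3.76 to -0.76, adjusted p = 0.061) and -1.84 with both groups together (adjusted p = 0.060 in edgeR, 0.0453 in DESeq2).

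Counted over the 24 tested chains, the groups did not overlap and the shRNA livers were lower for 8 chains with shRNA1# (12.9% of all genes) and for 4 with shRNA2# (16.1% of all genes). For no chain were all livers of a shRNA group above all controls. On TPM the counts were 10 chains with shRNA1# (22.9% of all genes) and 8 with shRNA2# (31.2% of all genes), so the share over all genes rose with them. Genes without overlap and higher in the shRNA livers were 15.7% and 16.8% of all genes in TMM-scaled CPM but 5.18% and 5.12% on TPM. In CPM the 8 chains with shRNA1# were Col1a2, Col5a1, Col5a2, Col11a2, Col4a2, Col15a1, Col16a1 and Col8a2, and the 4 with shRNA2# were Col4a1, Col16a1, Col8a2 and Col25a1. Col25a1, a membrane-spanning collagen of neurons named here after its values were seen, was at 0.939, 0.896 and 0.457 CPM in the controls and at 0.139, 0.0643 and 0.347 CPM with shRNA2#, on 71 reads in all, and did not pass (log2 fold change -2.03, adjusted p = 0.060 in edgeR). Col14a1, the most abundant of the fibril-associated collagens, was at 47.6, 92.8 and 71.3 CPM in the controls, at 64.1, 76.6 and 57.9 CPM with shRNA1# and at 67.7, 45.0 and 47.1 CPM with shRNA2#. Its groups overlapped. The other tested chains, Col8a1, Col12a1, Col13a1 and Col20a1, had log2 fold changes of -0.22 to 0.37 and overlapped in both comparisons.

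**Figure D4:**
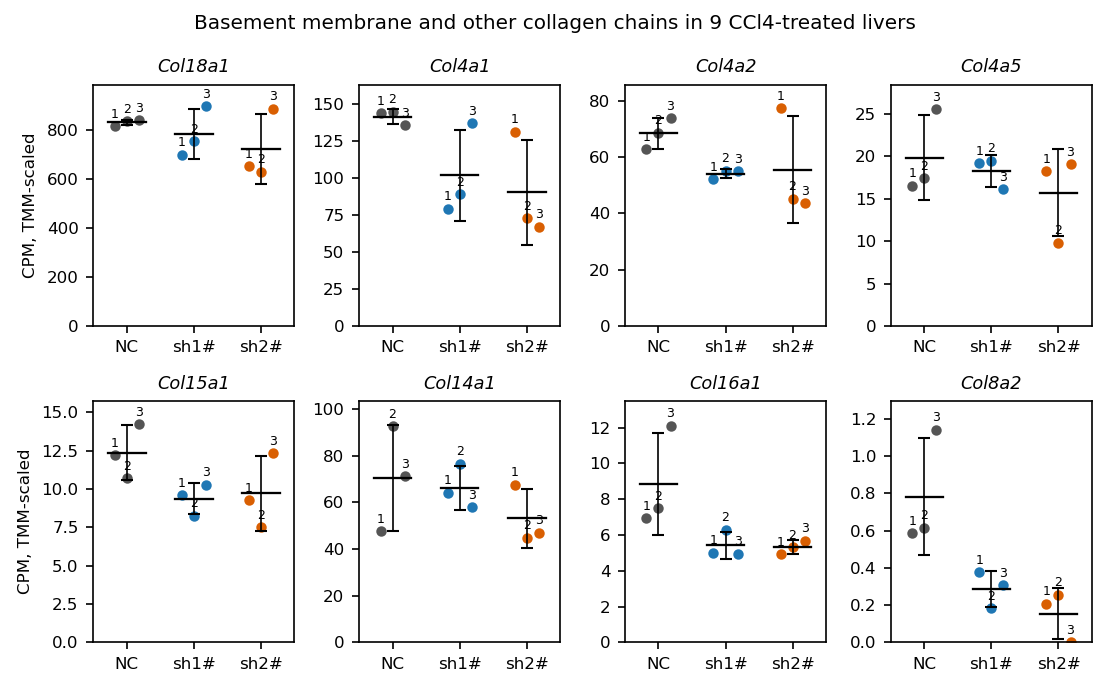
CPM of 5 basement membrane and 3 other chains by group, with a numbered point for each liver, a bar for the mean and whiskers for the SD (n = 3). Col16a1 and Col8a2 show no overlap between the controls and either shRNA group, whereas Col18a1 and Col4a1 each have a shRNA1# liver among or above the controls in TMM-scaled CPM.

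Ratios between partner chains were taken within each liver on the TPM scale, where they do not depend on library scaling. Col1a1 to Col1a2 was 0.753, 0.584 and 0.670 in the NC + CCl4 livers, 0.729, 0.690 and 0.578 with shRNA1# and 0.916, 1.12 and 0.712 with shRNA2#. Replicates 1 and 2 of shRNA2# lay above all other livers. Col4a1 to Col4a2 was 2.23, 2.06 and 1.79 in the controls, 1.48, 1.57 and 2.43 with shRNA1# and 1.65, 1.57 and 1.495 with shRNA2#. All 3 livers with shRNA2# had a lower ratio than any control. Col3a1 to Col1a1 ranged from 1.31 to 3.41 over the 9 livers and Col5a1 to Col5a2 from 0.328 to 0.698. In exact two-sided permutation tests of 4 ratios in 3 comparisons, the lowest p was 0.1, the smallest that 3 against 3 livers allow, for Col4a1 to Col4a2 with shRNA2# against the controls and for Col3a1 to Col1a1 between the shRNA groups. After Benjamini-Hochberg adjustment over the 12 tests both were at 0.48, and with 3 livers a group no ratio could pass 0.05.

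Among genes that act on collagen, a few passed edgeR's test, in either direction. Of 21 tested genes that modify and fold the chains, 0 passed with shRNA1# in edgeR, against 0% of all genes. At an unadjusted p under 0.05, 6 were lower and 1 was higher with shRNA1# (1299 and 1037 of 13059 genes). DESeq2 called 2 lower with shRNA1# (2.88% of all genes were called in either direction). With shRNA2# 1 fell and 1 rose in edgeR, against 8.60% of all genes called. DESeq2 called 2 lower and 3 higher with shRNA2# (974 and 1118 of the 13059 genes). P3h4, a partner of the lysyl hydroxylase complex that modifies fibrillar chains, was at 2.76, 3.02 and 5.43 CPM in the NC + CCl4 livers, at 1.69, 1.60 and 0.919 CPM with shRNA1# and at 1.73, 1.35 and 1.46 CPM with shRNA2#. No shRNA liver reached the controls. Its log2 fold change was -1.41 with shRNA1# (adjusted p = 0.149 in edgeR) and -1.30 with shRNA2# (95% interval -2.07 to -0.54, adjusted p = 0.0478). Ppib, a prolyl isomerase that helps the helix to fold and also serves many other secreted proteins, was at 202, 264 and 199 CPM in the controls, at 345, 311 and 262 CPM with shRNA1# and at 378, 356 and 394 CPM with shRNA2#. It rose with shRNA2#, where all livers lay above all controls (log2 fold change 0.76, 95% interval 0.42 to 1.104, adjusted p = 0.0288 in edgeR), and was at 0.47 with shRNA1# (adjusted p = 0.189). Both genes also passed with both groups together (adjusted p = 0.0358 and 0.0395). With shRNA2#, DESeq2 also called P4hb (log2 fold change 0.63, adjusted p = 0.00411) and P4ha2 (0.76, adjusted p = 0.0419) higher. All shRNA2# livers lay above all controls for both P4hb and P4ha2. It called Mia3 lower (-0.52, adjusted p = 0.0186 in DESeq2).

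Of 11 tested genes for procollagen processing and cross-linking, 10 had a negative log2 fold change with each shRNA. Over all genes, 47.1% were negative with shRNA1# and 49.5% with shRNA2#. In edgeR 1 of the 11 passed, with both groups together, against 5.90% of all genes called. This was Loxl1, an amine oxidase that cross-links elastin and collagen, at 19.8, 13.3 and 37.5 CPM in the NC + CCl4 livers, at 12.1, 10.1 and 5.27 CPM with shRNA1# and at 12.9, 9.77 and 9.84 CPM with shRNA2#. Every shRNA liver was below every control (log2 fold change with both groups together -1.24, 95% interval -1.95 to -0.54, adjusted p = 0.0488 in edgeR). DESeq2 called Loxl1 in each single comparison too, at an adjusted p of 0.0204 with shRNA1# and 0.0271 with shRNA2#. It called Lox, another enzyme of this kind, with shRNA2# (adjusted p = 0.0487) and with both groups together (adjusted p = 0.0359). Of 8 tested receptors and uptake genes, 1 passed in edgeR with both groups together (5.90% of all genes), the collagen receptor kinase Ddr2. Ddr2 was at 7.75, 10.4 and 13.4 CPM in the controls, at 6.96, 5.49 and 6.19 CPM with shRNA1# and at 7.27, 5.21 and 5.68 CPM with shRNA2#. It too separated in both comparisons (log2 fold change with both groups together -0.78, 95% interval -1.19 to -0.36, adjusted p = 0.0442 in edgeR). In DESeq2, Ddr2 (adjusted p = 0.0203) and Lair1, an inhibitory collagen receptor of leukocytes (adjusted p = 0.00968), were called with shRNA2#, as both were with the groups together (adjusted p = 0.00837 and 0.00934).

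All 8 tested collagenases and lysosomal proteases had a negative log2 fold change with each shRNA (47.1% and 49.5% of all genes). With shRNA2# 2 passed in edgeR, against 8.60% of all genes called. Mmp2, a gelatinase of fibroblasts and stellate cells, was at 22.5, 30.0 and 46.5 CPM in the NC + CCl4 livers, at 18.1, 16.0 and 9.56 CPM with shRNA1# and at 16.4, 14.7 and 16.8 CPM with shRNA2#. All shRNA livers lay below all controls, and the log2 fold change was -1.18 with shRNA1# (adjusted p = 0.144 in edgeR, 0.00748 in DESeq2) and -1.05 with shRNA2# (95% interval -1.67 to -0.43, adjusted p = 0.0483). Mmp9, a gelatinase of leukocytes, was at 3.11, 2.02 and 3.83 CPM in the controls, at 1.13, 1.85 and 2.39 CPM with shRNA1# and at 1.25, 0.965 and 1.25 CPM with shRNA2#. It fell with shRNA2# (log2 fold change -1.37, 95% interval -2.16 to -0.58, adjusted p = 0.046 in edgeR) and was at -0.73 with shRNA1# (adjusted p = 0.289).

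**Figure D5:**
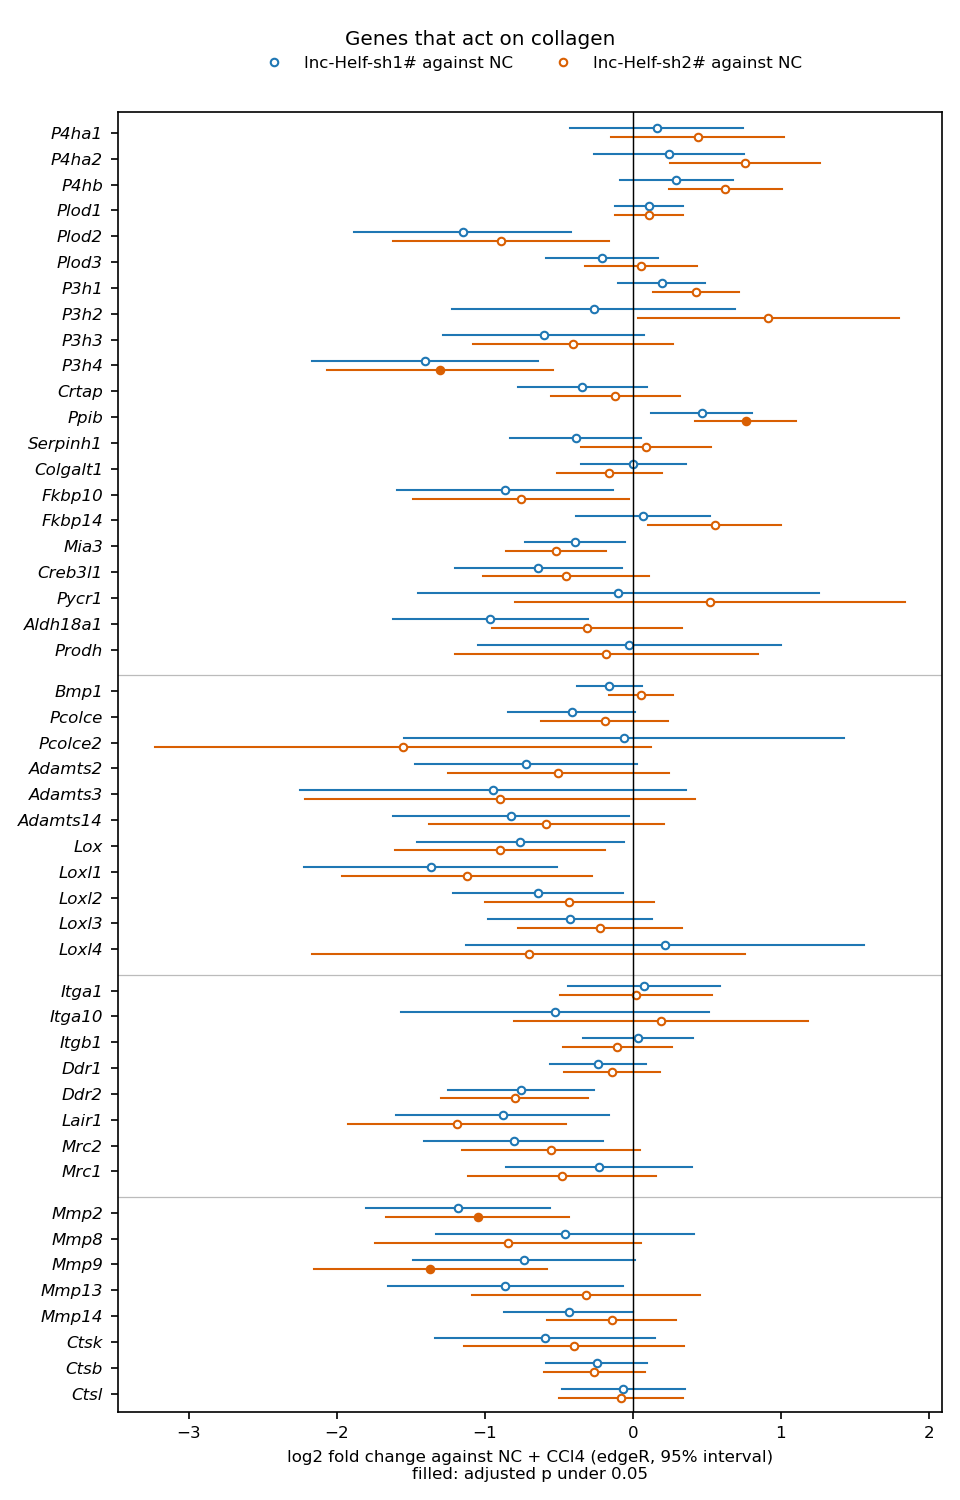
The log2 fold change against NC + CCl4 (horizontal axis, lines for the 95% interval) for 48 tested genes in 4 blocks, from the top modification and folding, processing and cross-linking, receptors and uptake, and collagenases, with shRNA1# in blue and shRNA2# in orange. Filled points have an adjusted p under 0.05 in edgeR, which are P3h4, Ppib, Mmp2 and Mmp9 with shRNA2#.

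Markers of other cell types of the liver were measured in the same libraries. Over all genes, edgeR called 0% with shRNA1#, 8.60% with shRNA2# and 5.90% with both groups together. At an unadjusted p under 0.05 in edgeR were 2336 of 13059 genes with shRNA1# and 4069 with shRNA2#. Those that were lower made up 9.95% and 14.9% of all genes. DESeq2 called 2.88% of all genes with shRNA1#. Its lower calls made up 7.56% with shRNA2# and 7.02% with both groups together. The 10 hepatic stellate cell markers, without collagens, summed to 138 to 235 CPM in the NC + CCl4 livers. Their sum was 134 to 232 CPM with shRNA1# and 135 to 298 CPM with shRNA2#. Reln was the largest part of each sum (197 of 298 CPM in lnc-Helf-sh2# + CCl4 replicate 1), with log2 fold changes of 0.18 and 0.22. The log2 fold change was negative for 5 of the 8 tested with shRNA1# and for 6 with shRNA2#, lowest for Pdgfrb (-0.61 and -0.45). Of the 8 tested, 0 passed in edgeR or DESeq2 (1 with shRNA1# and 0 with shRNA2# at an unadjusted p under 0.05 in edgeR). The 7 portal fibroblast markers summed to 44.7 to 83.7 CPM in the controls, to 27.5 to 39.2 CPM with shRNA1# and to 31.5 to 40.8 CPM with shRNA2#, without overlap, and 2 of 7 (Fbln2 and Clec3b) passed with shRNA2# and with both groups together in edgeR, with 0 called with shRNA1# (3 at an unadjusted p under 0.05, 2 in DESeq2). DESeq2 called 4 of 7 with shRNA2#. The 4 mesothelial markers summed to 26.0 to 79.9, 12.4 to 20.9 and 13.4 to 29.9 CPM, and 0 of 4 passed in edgeR. All 4 had an unadjusted p under 0.05 with each shRNA. DESeq2 called 2 with shRNA1#, 1 with shRNA2# and 4 with both groups together, all lower. The 5 monocyte markers summed to 430 to 922, 259 to 404 and 245 to 304 CPM. All 5 had a negative log2 fold change with each shRNA. With shRNA2# 3 of 5 passed in edgeR (8.60% of all genes) and in DESeq2. With shRNA1# 0 passed in edgeR (4 at an unadjusted p under 0.05, 1 in DESeq2). The 8 endothelial markers summed to 152 to 255, 138 to 202 and 126 to 170 CPM, and 0 of 8 passed in edgeR or DESeq2 (1 with shRNA1# and 2 with shRNA2# at an unadjusted p under 0.05 in edgeR). The 5 Kupffer cell markers summed to 173 to 270, 159 to 358 and 132 to 153 CPM. With shRNA2# all 5 had a negative log2 fold change (median -0.93) and 4 lay below all controls, and 0 passed in edgeR or DESeq2 (4 at an unadjusted p under 0.05 in edgeR). With shRNA1# their median was -0.02, and 0 passed in either tool (0 at an unadjusted p under 0.05). The 6 hepatocyte markers summed to 106635 to 134464, 98431 to 156188 and 118324 to 157234 CPM. Their log2 fold change was positive for 6 of 6 with shRNA1# and for 5 of 6 with shRNA2#, and 0 passed in edgeR (0 and 1 at an unadjusted p under 0.05, 0 and 1 in DESeq2). The 5 cholangiocyte markers summed to 269 to 424, 182 to 454 and 386 to 1250 CPM, and 0 passed in edgeR (2 and 2 at an unadjusted p under 0.05, 0 and 1 in DESeq2). Spp1 made up most of each sum (1233 of 1250 CPM in lnc-Helf-sh2# + CCl4 replicate 1), with log2 fold changes of 0.04 and 0.99. Krt19 (-1.03 and -0.89), Krt7 (-1.06 and -0.445) and Epcam (-0.145 and -0.325) had lower means with each shRNA. At an unadjusted p under 0.05, both were lower with shRNA1#, against 1 lower and 1 higher with shRNA2#. The DESeq2 call was Sox9, higher with shRNA2# (0.62, adjusted p = 0.0314 in DESeq2). The 5 smooth muscle markers summed to 8.95 to 16.6, 6.13 to 14.1 and 8.69 to 21.8 CPM, and 0 of the 3 tested passed in edgeR or DESeq2 (0 at an unadjusted p under 0.05 in either comparison). Acta2, which the paper measured as a profibrotic gene, was counted in this smooth muscle list and not among the stellate cell markers. Its log2 fold changes were -1.03 with shRNA1# and -0.53 with shRNA2# (adjusted p = 0.3 and 0.477 in edgeR). Myh11 was at -0.43 and 0.165, and Tagln at 0.06 and 0.35. No marker of these 9 lists was at 0 in all libraries. The part of these differences in the collagen values was not tested.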

How the data were processed

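The authors deposited 1 gene table for the 9 libraries with RSEM expected counts, FPKM and TPM from single-end reads. The expected counts were deposited without normalization, and 8.15% of them are not whole (tolerance 1e-06). The FPKM values deposited by the authors are scaled to library size and transcript length and served only as an alternative. The TPM values deposited by the authors, also corrected for length, were used for levels between chains, class sums and ratios. BWA, Bowtie2 and RSEM appear in the submitters' processing notes with no version, and so does hg19, a human build, although the gene numbers are those of mouse. The sources used here do not say what hg19 was used for.

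Rounded expected counts were tested in R 4.3.3 with edgeR 4.0.16 (filterByExpr with a minimum count of 10, TMM, quasi-likelihood F test, 1 fit over all 9 libraries without covariates, 13059 genes kept). Adjustment followed Benjamini and Hochberg over all genes tested, and a gene was called at an adjusted p under 0.05. Intervals are 95%. The labels call the libraries of a group biological replicates. Ratios were tested by exact permutation in Python 3.11.15. All replicate pairs differed by more than sampling noise. The scripts were tested on simulated counts. Promoter sequences come from RefSeq (GRCm38.p6).

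The chains and gene lists were chosen with earlier results of these data known. Values are given for each tested chain of collagens I, III, IV and V, for each chain that edgeR or DESeq2 called or that did not overlap in both shRNA comparisons, and for genes acting on collagen that edgeR called. Col18a1, Col15a1, Col14a1, Col25a1 and Col27a1 were added after their values were seen. Alternatives were DESeq2 1.42.0, other scaling factors and filters, fits of only the groups compared, limma-trend (limma 3.58.1) on log2 FPKM with pseudocounts of 1 and 0.1, the replicate number as a block, and leaving out each library. A TPM ratio in FPKM, or with a pseudocount of 1 TPM, was a further alternative.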

Additional observations from a re-analysis of the deposited data

How the results depend on the processing

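The count of called chains moved from 0 to 2 with shRNA2# and to 4 with both groups together in DESeq2, and it ranged from 0 to 2 and from 0 to 3 when single libraries were left out. The chains gained were Col4a1 and Col4a2 with shRNA2# without lnc-Helf-sh2# + CCl4 replicate 1, the same 2 chains and Col5a2 with both groups together, and Col24a1 (1 chain) without NC + CCl4 replicate 2. With shRNA1# and between the shRNA groups the count was 0 under every alternative run. The deviations of same-numbered libraries correlated at -0.424 to 0.217. Differently numbered libraries were not compared, so these values cannot decide whether replicate numbers paired the livers. With the replicate number as a block 0 chains were called in each comparison. Counted on TPM or on CPM without TMM factors, which was chosen after seeing the data, the chains without overlap went from 4 to 8 with shRNA2# and from 8 to 10 with shRNA1#. The share over all genes went from 16.1% to 31.2% on TPM and 26.0% without TMM factors with shRNA2#, and from 12.9% to 22.9% and 23.1% with shRNA1#.

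No chain had passed in the main fit and no ratio could, so only values that had not passed could turn direction. Leaving out single libraries turned Col14a1 with shRNA1#, Col20a1 with shRNA2#, and Col8a1, Col12a1 and Col13a1 with each shRNA. When single libraries were left out, the log2 fold change ranged from -0.39 to 0.28 for Col1a1 and from -0.85 to 0.10 for Col4a3 with shRNA2#. With shRNA1# it ranged from -0.44 to 0.24 for Col27a1, from -0.39 to 1.14 for Col4a3, from -0.65 to 0.075 for Col4a4, from -0.23 to 0.10 for Col4a5 and from -0.35 to 0.04 for Col5a3. The log2 ratio of Col1a1 to Col1a2 (-0.10 to 0.092), of Col3a1 to Col1a1 (-0.053 to 0.36) and of Col5a1 to Col5a2 (-0.09 to 0.19) turned with shRNA1#, that of Col5a1 to Col5a2 with shRNA2# (-0.18 to 0.36), and those of Col4a1 to Col4a2 (-0.31 to 0.045) and Col5a1 to Col5a2 (-0.26 to 0.28) between the shRNA groups. Under the block Col27a1 was at 0.003 with shRNA1#, and with a pseudocount of 1 TPM the ratio of Col1a1 to Col1a2 was at 0.006. The causes were not tested. In limma-trend on log2(FPKM + 0.1) the median of all genes lay at -0.11 with shRNA1# and -0.16 with shRNA2#, against -0.34 and -0.50 for the chains. Chains under about 1 CPM rest on few reads, which limits what could be called.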
